A study of Mus musculus with 6 samples.

Results

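A set of 10 genes that encode receptors for colony stimulating factors, interleukins and interferons was followed in mouse neutrophils from the liver and the circulation during feeding of 3,5-diethoxycarbonyl-1,4-dihydrocollidine (DDC), a compound that damages bile ducts. The genes were Csf3r, Csf2ra, Csf2rb, Csf2rb2, Il6ra, Il4ra, Il10ra, Ifngr1, Ifngr2 and Ifnar1. They were chosen by symbol, and all 10 were found among 53090 rows, each with a single row. The liver group held 3 libraries of Ly6G-selected cells from a Percoll gradient, and the blood group held 3 libraries of Ly6G-selected cells from blood after lysis. All 6 libraries came from mice on the DDC diet for 1 week, and no library from untreated mice was analysed here. The labels give neither the strain nor the age, and the preparation of the cells differed between the groups. They also do not say whether the libraries of a group came from separate mice beyond a stated n of 3, and the p-values below cover the variation among these libraries and no more.

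Neutrophils are made, released and kept alive under the control of cytokines. Csf3r binds granulocyte colony stimulating factor (G-CSF), the main growth factor of the neutrophil lineage. Csf2ra binds GM-CSF and signals together with the common beta chain Csf2rb. Csf2rb2 is a close copy found in mice that pairs with the interleukin 3 (IL-3) chain. Il6ra, Il4ra and Il10ra bind the interleukins they are named for and need a partner chain to signal, and Ifngr1 with Ifngr2, and Ifnar1 with Ifnar2, form the receptors for interferon gamma and type I interferon. All of these receptors pass their signal through JAK kinases to STAT transcription factors, which SOCS proteins and phosphatases hold in check.

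Total expected counts ran from 13778718 to 17579671 in the liver libraries and from 13054684 to 14403815 in the blood libraries. A level of 0.181 to 0.263 CPM, depending on the library, rests on 3 counts, where CPM are counts scaled to a common library size, and this floor covers counting error only. Levels below are CPM on library sizes scaled by the TMM method, and ± marks the SD over 3 libraries unless a standard error (SE) is named. Of 12 neutrophil marker genes, 9 were lower in liver, and their summed level was 6059 to 9863 CPM in liver and 16362 to 26506 CPM in blood. The most abundant of them in liver, S100a9, had 1927, 2749 and 1724 CPM in liver and 4168, 10694 and 5997 CPM in blood. Markers of several other cell types moved the other way. The summed level of 8 monocyte markers was 806 to 1235 CPM in liver and 74.7 to 151 CPM in blood, with 7 of 8 higher in liver. That of 12 Kupffer cell and macrophage markers was 529 to 1017 CPM in liver and 328 to 512 CPM in blood, with 6 of 11 tested genes higher. Of these 11, 9 met the count filter in the liver libraries only, which fixes the direction they could take. Of the 2 that met it in both groups, 1 was higher. Among all genes tested, 17.4% were higher and 14.2% lower. Smaller sums stood apart for dendritic cells, with 34.2 to 90.3 CPM in liver and 8.15 to 17.5 CPM in blood, and for endothelial cells, with 15.1 to 37.9 CPM in liver and 1.58 to 3.49 CPM in blood. Single genes made up most of some sums. Without Trf the 9 other hepatocyte markers summed to 15.3 to 236 CPM in liver and 0.788 to 4.53 CPM in blood, and without Csf1r the 11 other macrophage markers to 237 to 628 CPM in liver and 41.5 to 172 CPM in blood. The bile duct cell sum was 46.1 to 72.6 CPM in liver and 11.2 to 14.6 CPM in blood with Spp1, and 3.15 to 5.22 CPM in liver and 8.50 to 12.8 CPM in blood without it. Eosinophil, basophil and mast cell markers overlapped between the groups (liver sums 53.7 to 224 CPM, blood sums 43.1 to 103 CPM), and Prg2, Epx and Fcer1a were at 0 in every library of both. Platelet marker sums were lower in liver, at 7.57 to 15.8 CPM against 35.0 to 208 CPM in blood, and the sums of T and NK cell, B cell and red cell genes overlapped. Liver 3 and blood 1 had the highest monocyte, macrophage and hepatocyte sums of their groups. The part of these other transcripts in the receptor results was not tested, and in these bulk samples fewer cells of a type and less RNA per cell cannot be told apart.

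Of the 10 receptor genes, 2 were higher in liver neutrophils, 2 were lower and 6 did not pass an adjusted p of 0.05 in edgeR's quasi-likelihood test with Benjamini-Hochberg adjustment. Il10ra and Ifnar1 were higher, and Csf3r and Il6ra were lower. Among all 13458 genes tested, 31.6% were called, 17.4% as higher and 14.2% as lower, so that 4 of 10 receptor genes is a share near that background. The median log2 fold change of liver over blood was 0.14 over the 10 genes and 0.04 over all genes tested. The 3 liver libraries lay above all 3 blood libraries for 2 of the genes and below them for 3, against 25.8% and 22.7% of all genes tested. Without liver 3 and blood 1 together, 2 receptor genes passed, Il10ra as higher and Il6ra as lower.

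**Figure D1:**
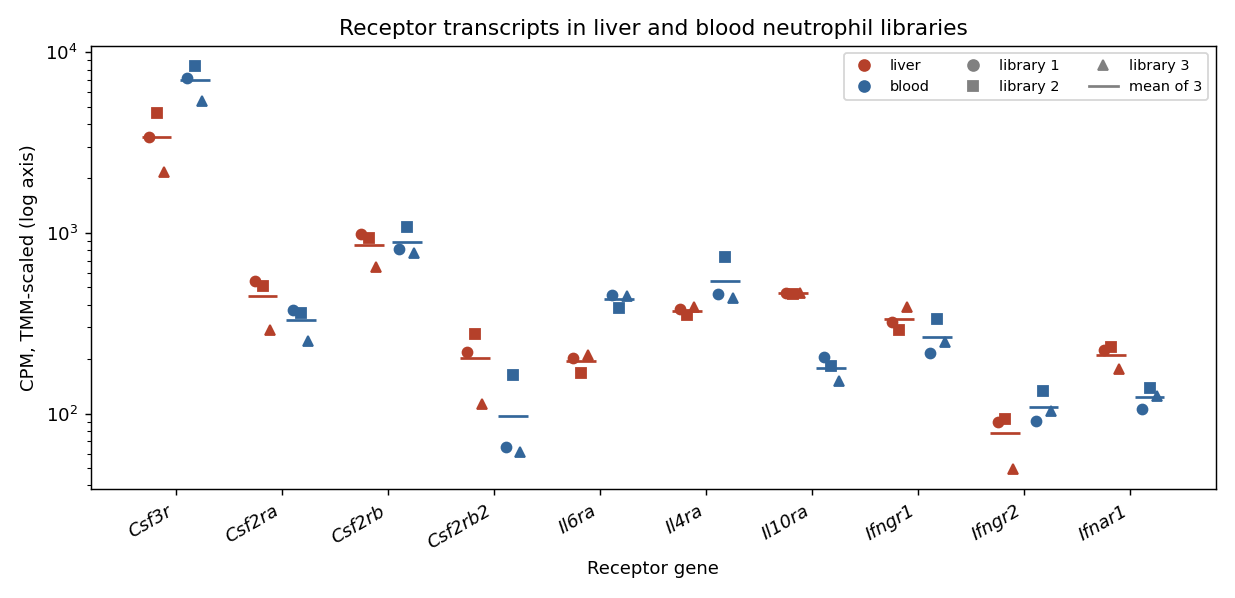
Levels of the 10 receptor genes in each library, in CPM on a log axis, with liver libraries left of blood libraries; points are libraries and bars are group means. The liver points of Il10ra lie close together between 460.2 and 467 CPM, above the blood points at 150.4 to 204 CPM, and those of Il6ra lie below all blood points.

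The receptor for G-CSF was by far the most abundant of the set in both places and was lower in liver neutrophils. Csf3r, on chromosome 4 (126024550 to 126044440, plus strand, GRCm38), had 3393, 4598 and 2181 CPM in liver and 7214, 8369 and 5333 CPM in blood. The groups did not overlap, with liver 3 lowest and blood 2 highest. The means were 3391 ± 1208 CPM in liver and 6972 ± 1533 CPM in blood, a log2 fold change of -1.04 ± 0.32 (SE), or 2.06-fold lower in liver (adjusted p = 0.0346). Neutrophil markers were lower in the same liver libraries. The call was lost when liver 1, liver 3, blood 1 or blood 2 was left out, with adjusted p of 0.0733 to 0.0931, and the log2 fold change without liver 3 and blood 1 was -0.81 (adjusted p = 0.166).

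Divided by the length of the exons, which allows levels of different genes to be compared, Csf3r stood at 940 ± 335 CPM per kb in liver and 1932 ± 425 CPM per kb in blood. In mean level it was 6.06-fold above the next receptor gene, Csf2ra, in liver and 15.8-fold above the next, Csf2rb, in blood. Csf3r held 55.2%, 63.3% and 49.6% of the summed length-scaled level of the 10 genes in liver, against 78.1%, 76.7% and 74.3% in blood. In liver the order after Csf3r was Csf2ra, Il10ra, Csf2rb and Ifngr1, from 155 ± 47.8 to 117 ± 18.5 CPM per kb, and neighbours among these 4 overlapped between libraries. Il4ra followed at 61.9 ± 3.26 CPM per kb, then Csf2rb2 and Ifnar1, which overlapped, and then Il6ra and Ifngr2, which also overlapped. In blood Csf2rb, Csf2ra, Ifngr1 and Il4ra came after Csf3r, from 122 ± 22.7 to 90.6 ± 28.1 CPM per kb, again with overlap between neighbours. Il10ra was at 51.4 ± 7.77 and Il6ra at 49.5 ± 4.26 CPM per kb in blood and overlapped, Ifngr2 stood below them, and Ifnar1 and Csf2rb2 closed the order. Il10ra thus ranked 3 in liver and 6 in blood, and Il6ra ranked 9 in liver and 7 in blood. With the longest transcript as the length, Csf2rb ranked 3, Ifngr1 4, Il10ra 5, Ifnar1 7 and Csf2rb2 8 in liver. In blood Ifnar1 then ranked 8, above Ifngr2 at 9.

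Csf2ra, Csf2rb and Csf2rb2, chains of the receptors for GM-CSF and IL-3, did not pass the test. The alpha chain Csf2ra (chromosome 19, 61223957 to 61228429, minus strand) had 542, 505 and 288 CPM in liver and 376, 360.2 and 253 CPM in blood. Its groups overlapped through liver 3, and the log2 fold change was 0.43 ± 0.27 (SE; adjusted p = 0.251). The common beta chain Csf2rb (chromosome 15, 78325752 to 78353847, plus strand) had 984, 939 and 650.1 CPM in liver and 814, 1078 and 773 CPM in blood. Those ranges lay across each other, and the log2 fold change of -0.05 ± 0.24 (SE; adjusted p = 0.892) changed sign with the scaling between libraries. Csf2rb2 (chromosome 15, 78282507 to 78305721, minus strand), which lies beside it, had 220.2, 275 and 113 CPM in liver and 65.3, 163 and 61.0 CPM in blood. Blood 2 lay above liver 3, and the log2 fold change was 1.07 ± 0.46 (SE; adjusted p = 0.116). Pairing the libraries by sample number, which the labels do not explain, moved Csf2rb2 past the threshold, at 1.13 with an adjusted p of 0.00818. So did leaving out blood 2, at 1.66 with an adjusted p of 0.0151. Csf2rb2 also passed with total counts as the scaling (0.0412), with no filter (0.00049) and with DESeq2 (0.0453), 5 of 16 alternatives in all.

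Csf2rb and Csf2rb2 are near-identical, and the sequences below show where reads can and cannot tell them apart. Over 2628 aligned bases of their coding sequences (GENCODE M21, GRCm38), 95.2% were identical. The first pair of 90-base stretches holds 16 differing bases, in capitals. It runs from coding base 308 to 397 in Csf2rb and from 311 to 400 in Csf2rb2.
Csf2rb: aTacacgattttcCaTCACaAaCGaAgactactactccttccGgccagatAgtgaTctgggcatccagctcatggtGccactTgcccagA
Csf2rb2: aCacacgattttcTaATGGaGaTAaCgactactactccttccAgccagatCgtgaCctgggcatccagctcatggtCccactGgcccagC
The next stretch, coding bases 2083 to 2172 in both genes, opens the longest identical run, of 242 bases, and a read from within it fits both genes.
Csf2rb and Csf2rb2: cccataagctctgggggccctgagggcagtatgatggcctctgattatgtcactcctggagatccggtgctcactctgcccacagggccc
Of all 75-base stretches of the Csf2rb coding sequence, 15.8% occur unchanged in Csf2rb2, and of all 50-base stretches 26.0%. The deposited expected counts of both genes held fractions that added up to whole numbers in all 6 libraries, so reads had been divided between them. Their summed counts gave a log2 fold change of 0.11 (adjusted p = 0.782). Within a library the ratio of Csf2rb2 to Csf2rb counts was 0.224, 0.293 and 0.175 in liver and 0.0801, 0.152 and 0.0789 in blood. The groups did not overlap, with a 2.29-fold difference and an exact two-sided permutation p of 0.1, the smallest that 3 against 3 allows. How much of it depends on the division of shared reads was not tested.

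The IL-3 alpha chain Il3ra, which is named with its values known, was higher in liver, with 15.4, 8.97 and 7.33 CPM in liver and 5.53, 1.75 and 3.16 CPM in blood. Its log2 fold change was 1.59 ± 0.47 (SE; adjusted p = 0.0296), which no longer passed when liver 1, liver 2, blood 2 or blood 3 was dropped (0.0504 to 0.122). Il5ra, the alpha chain for interleukin 5, was too low to test, with 26 counts summed in liver and 21 in blood. The ratio of Csf2ra to the summed beta chains was 0.450, 0.416 and 0.377 in liver and 0.427, 0.290 and 0.303 in blood, which overlapped (exact two-sided permutation p = 0.3).

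**Figure D2:**
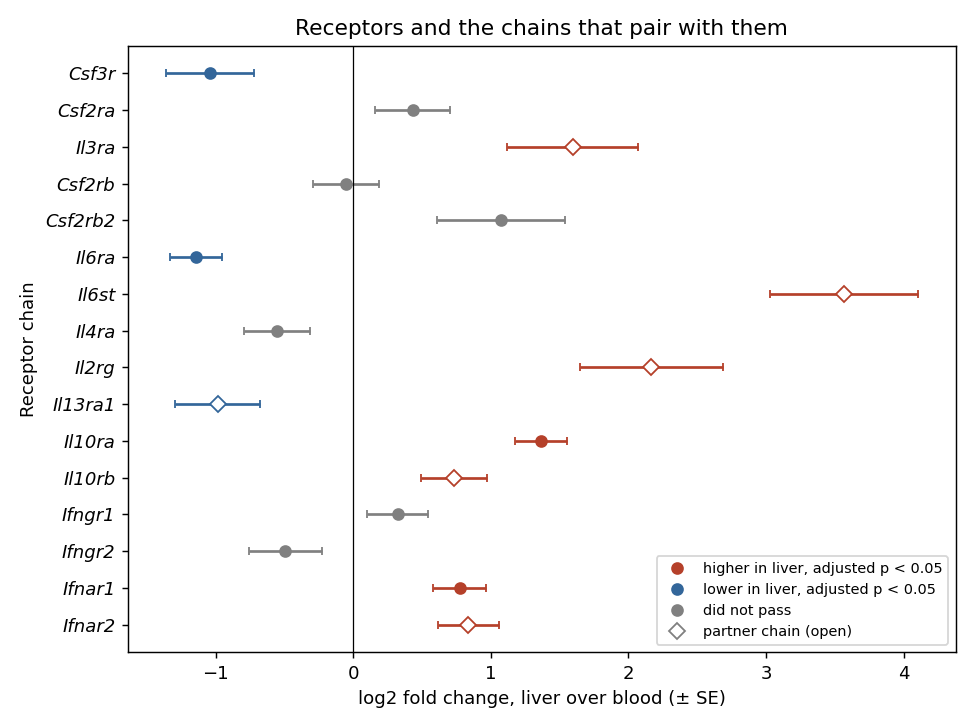
log2 fold change of liver over blood for the 10 receptor genes and their partner chains, as points with bars of 1 SE; colour marks the genes that passed the test in each direction. Il6st lies at 3.57, while the receptor it serves, Il6ra, lies at -1.14.

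The receptors that bind interleukins moved in different directions, and their partner chains did not all move with them. Il6ra, the chain that binds interleukin 6 (chromosome 3, 89864059 to 89913196, minus strand), was lower in liver, with 203, 168 and 211 CPM in liver and 451, 385 and 447 CPM in blood. The groups lay well apart, with a mean of 194 ± 22.8 CPM for liver and 428 ± 36.8 CPM for blood. That is a log2 fold change of -1.14 ± 0.19 (SE), or 2.20-fold lower (adjusted p = 0.00236), and Il6ra passed in all 18 alternatives tried. Its partner Il6st, the chain known as gp130 that several cytokines share, was higher, with 34.7, 19.0 and 41.7 CPM in liver and 4.31, 2.80 and 0.940 CPM in blood. The log2 fold change of Il6st was 3.57 ± 0.54 (SE), or 11.9-fold (adjusted p = 0.00195), and all liver libraries lay above all blood libraries. Within a library the ratio of Il6st to Il6ra counts was 0.171, 0.113 and 0.198 in liver and 0.00957, 0.00728 and 0.0021 in blood, a 29.1-fold difference with an exact two-sided permutation p of 0.1. On the log2 scale it was 4.86, and 4.21 without blood 3. Among the liver libraries Il6st was lowest in liver 2 and highest in liver 3. The monocyte, macrophage, dendritic cell and endothelial cell marker sums had that same order in liver. The hepatocyte sum (270, 302 and 491 CPM) and the bile duct cell sum (61.1, 72.6 and 46.1 CPM) did not. In blood Il6st had the order of the macrophage sum (512, 411 and 328 CPM) but not that of the other sums just named. An order over 3 libraries cannot tell which cells a transcript came from, and the part of other cells in the Il6st level was not tested. Part of the Il6ra reads was shared with the antisense gene Gm42809, which held 0.589% to 4.52% of the summed counts per library.

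The 250 bases before the start of Il6ra are shown because it was the receptor gene with the largest fall. They are from RefSeq (GRCm38.p6), chr3:89913197-89913446 on the minus strand, with the core motif of the myeloid factor PU.1, GAGGAA on either strand, in capitals.
Il6ra: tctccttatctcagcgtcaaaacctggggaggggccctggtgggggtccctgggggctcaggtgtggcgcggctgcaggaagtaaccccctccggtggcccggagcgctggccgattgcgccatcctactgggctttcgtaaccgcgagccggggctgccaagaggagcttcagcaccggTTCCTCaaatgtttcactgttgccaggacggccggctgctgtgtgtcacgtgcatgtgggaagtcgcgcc
The same window of Ifnar1, the smaller of the rises, is chr16:91484965-91485214 on the plus strand.
Ifnar1: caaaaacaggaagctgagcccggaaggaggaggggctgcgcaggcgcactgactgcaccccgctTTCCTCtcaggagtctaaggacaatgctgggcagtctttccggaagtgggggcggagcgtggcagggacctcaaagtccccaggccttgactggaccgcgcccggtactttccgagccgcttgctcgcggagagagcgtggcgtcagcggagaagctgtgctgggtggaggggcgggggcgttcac
Both hold a single match, as TTCCTC on the strand shown. Windows were found for 8 of the 10 genes, and 5 of these held GAGGAA, against 23.1% of 27025 promoters of the same length. The STAT motif TTCNNNGAA was found in 1 of 8, Csf2rb2, against 7.18% of all promoters. TTGCNNAA, a C/EBP motif, and the core of the interferon-stimulated response element (GAAA, any pair of bases, then GAAA), were found in 0 of 8, against 9.55% and 3.04% of all promoters. No match of a motif overlapped that of another, and a match describes the letters of the window and not a site in use.
Csf2rb2 (chr15:78305722-78305971, minus strand, with the STAT and PU.1 motifs in capitals): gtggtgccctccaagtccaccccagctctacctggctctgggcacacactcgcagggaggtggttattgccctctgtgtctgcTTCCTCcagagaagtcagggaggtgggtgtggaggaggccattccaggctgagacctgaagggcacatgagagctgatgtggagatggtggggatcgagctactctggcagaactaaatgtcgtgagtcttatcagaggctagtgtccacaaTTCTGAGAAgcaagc

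Il10ra, the chain that binds the anti-inflammatory cytokine interleukin 10 (chromosome 9, 45253837 to 45269149, minus strand), was higher in liver neutrophils and was the steadiest receptor gene of the liver libraries. It had 467, 460.2 and 462 CPM in liver and 204, 184 and 150.4 CPM in blood. The means were 463 ± 3.43 CPM in liver and 179.7 ± 27.2 CPM in blood, a log2 fold change of 1.37 ± 0.19 (SE), or 2.58-fold (adjusted p = 0.00115). Il10ra passed in all 17 alternatives, and was at 1.44 without liver 3 and blood 1. The part of the higher monocyte and macrophage transcripts of the liver libraries in its level was not tested. The partner Il10rb, whose mention was decided with its values known, had 323, 279 and 192 CPM in liver and 166, 184 and 127 CPM in blood, with a log2 fold change of 0.73 ± 0.24 (SE; adjusted p = 0.0414). Its call was lost when any single library other than liver 3 was left out (adjusted p of 0.0545 to 0.168). The ratio of Il10rb to Il10ra counts was 0.692, 0.606 and 0.415 in liver and 0.814, 1.00 and 0.844 in blood, lower in every liver library (exact two-sided permutation p = 0.1).

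Il4ra, the chain shared by the receptors for interleukins 4 and 13 (chromosome 7, 125552120 to 125579474, plus strand), did not pass the test although its groups did not overlap. It had 377, 349 and 387 CPM in liver and 458, 738 and 436 CPM in blood, a log2 fold change of -0.55 ± 0.24 (SE; adjusted p = 0.105). Blood 2 stood far above the other blood libraries. Of its partners, Il2rg, the common gamma chain, was higher in liver, and Il13ra1, which binds interleukin 13, was lower. Il2rg had 88.1, 76.8 and 50.4 CPM in liver and 22.9, 20.1 and 5.10 CPM in blood, a log2 fold change of 2.17 ± 0.52 (SE), or 4.49-fold (adjusted p = 0.0169). Il13ra1 had 136, 216 and 119 CPM in liver and 241, 445 and 244 CPM in blood, a log2 fold change of -0.98 ± 0.31 (SE), or 1.98-fold lower (adjusted p = 0.0371). Both calls depended on single libraries. The Il2rg call was lost without liver 1 or blood 2 (adjusted p of 0.0527 to 0.0547), and that of Il13ra1 without liver 1, liver 3 or blood 2 (0.108 to 0.118). The ratio of Il2rg to Il4ra counts was 0.234, 0.220 and 0.130 in liver and 0.0499, 0.0272 and 0.0117 in blood, 7.48-fold higher in liver (exact two-sided permutation p = 0.1).

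The receptor for type I interferon was higher in liver neutrophils in both its chains. Ifnar1 (chromosome 16, 91485238 to 91507441, plus strand) had 224, 232 and 176 CPM in liver and 107, 138 and 125 CPM in blood. The groups did not overlap, with means of 211 ± 30.7 CPM in liver and 123 ± 15.7 CPM in blood and a log2 fold change of 0.78 ± 0.19 (SE), or 1.71-fold (adjusted p = 0.0141). Ifnar2, the high-affinity chain, had 136, 139 and 97.1 CPM in liver and 53.0, 77.6 and 77.8 CPM in blood, and rose by 0.84 ± 0.22 (SE) on the log2 scale, or 1.79-fold (adjusted p = 0.0196). The proportion of the chains overlapped between the groups, with Ifnar2 to Ifnar1 count ratios of 0.607, 0.600 and 0.553 in liver and 0.498, 0.564 and 0.621 in blood (exact two-sided permutation p = 0.7). The Ifnar1 call was lost without liver 1, blood 1 or blood 3 (adjusted p of 0.0516 to 0.0767) and without liver 3 and blood 1 together (0.0547). The Ifnar2 call was lost without liver 1, liver 2 or blood 1 (0.0641 to 0.0847).

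The receptor chains for interferon gamma did not pass. Ifngr1, which binds the ligand (chromosome 10, 19591949 to 19610229, plus strand), had 319, 288 and 391 CPM in liver and 215, 334 and 249.7 CPM in blood, a log2 fold change of 0.32 ± 0.22 (SE; adjusted p = 0.295). Ifngr2, the signalling chain (chromosome 16, 91547072 to 91565623, plus strand), had 90.3, 93.2 and 49.1 CPM in liver and 90.8, 133 and 103 CPM in blood, a log2 fold change of -0.49 ± 0.27 (SE; adjusted p = 0.186). Neither set of values separated the groups, and liver 3 was the highest liver library for Ifngr1 and the lowest for Ifngr2. Their ratio within a library did separate them. Ifngr2 to Ifngr1 counts stood at 0.283, 0.323 and 0.126 in liver and 0.422, 0.400 and 0.412 in blood, a log2 difference of -0.87 with an exact two-sided permutation p of 0.1. Without liver 3 that difference was -0.44. Over the 7 chain ratios examined, 5 did not overlap between the groups, each with an adjusted p of 0.14. Ratios of other gene pairs were not examined, so this count has no background share beside it.

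**Figure D3:**
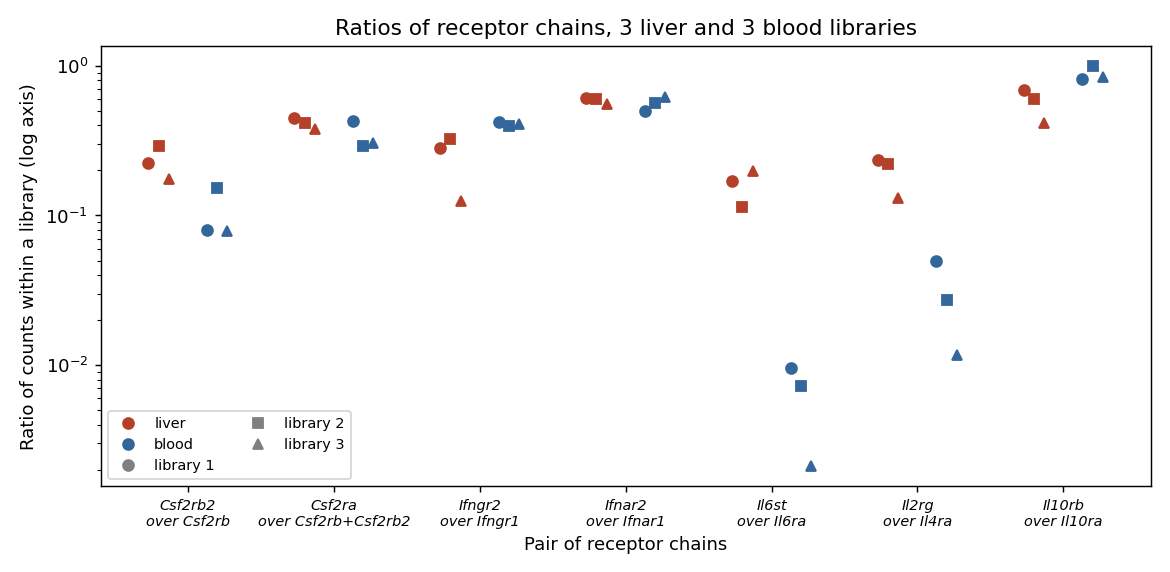
Count ratios of 7 pairs of receptor chains within each library, on a log axis, with liver left of blood. Liver libraries lie above blood for Il6st to Il6ra, Il2rg to Il4ra and Csf2rb2 to Csf2rb, and below for Ifngr2 to Ifngr1 and Il10rb to Il10ra.

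The genes most like 3 of the receptors in pattern were found by the root mean square difference of log2 CPM, centred per gene, over the 6 libraries among 6747 genes. For Csf3r they included Pbxip1 (0.0958) and Sirpb1b (0.119). For Il10ra they were Akr1a1 (0.0343), Eif4a1 (0.0986) and Lipa (0.104), and for Il6ra they were Tmx4 (0.0487), Dach1 (0.0658) and Zmynd11 (0.0671). Akr1a1 followed Il10ra most closely, with 87.9, 86.4 and 91.8 CPM in liver and 38.1, 34.5 and 29.3 CPM in blood.

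Among 30 other cytokine receptor genes, 14 were abundant enough to test, of which 5 were higher in liver (Il2rb, Il7r, Il12rb2, Il21r and Lifr) and 2 lower (Il15ra and Ifnlr1). That compares with 17.4% higher and 14.2% lower among all genes tested, but Il12rb2 and Il21r met the count filter in the liver libraries only. The counts were 2 higher and 1 lower without liver 3 and blood 1. Il7r did not pass with libraries paired by number (adjusted p = 0.0558). Among the liver libraries all 5 higher genes were lowest in liver 2 and highest in liver 3. The monocyte, macrophage, dendritic cell and endothelial cell sums had that order too, and the hepatocyte and bile duct cell sums did not. The part of other cells in the levels of these 5 genes was not tested. Ifnlr1, the chain that binds interferon lambda, was lower, with 9.33, 10.4 and 8.36 CPM in liver and 33.1, 32.6 and 32.6 CPM in blood, a log2 fold change of -1.81 ± 0.23 (SE), or 3.50-fold lower (adjusted p = 0.00074). Lifr, the receptor for leukaemia inhibitory factor and a partner of gp130, was higher, with 41.0, 30.1 and 56.3 CPM in liver and 18.0, 13.2 and 11.9 CPM in blood, a log2 fold change of 1.56 ± 0.29 (SE; adjusted p = 0.00385). Csf1r, the macrophage growth factor receptor and the most abundant of these genes, had 401, 292 and 388 CPM in liver and 340.1, 351 and 287 CPM in blood and did not pass (adjusted p = 0.609).

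Of 14 ligand genes, 3 met the count filter, and Il6 and Il10 met it in the liver libraries only, so that no other direction than higher was open to them. Csf1, the ligand of Csf1r, had 397, 1413 and 929 CPM in liver and 265, 174 and 261 CPM in blood, a log2 fold change of 1.97 ± 0.43 (SE), or 3.92-fold (adjusted p = 0.00952). The Csf1 libraries of liver spread widely, and the adjusted p was 0.0693 with libraries paired by number and 0.0614 without liver 3 and blood 1. The ligands of receptors described above were scarce, and Il10, Il6 and Csf3 are named after their values were seen. Il10 had 6.85, 7.95 and 7.33 CPM in liver and 0, 0.263 and 0 CPM in blood. Il6 had 100 counts in the liver group and 0 in the blood group, which makes it at least 28.2-fold higher when 3 counts in the whole blood group are taken as the limit. Csf3, which encodes G-CSF, had 121 liver counts and 0 in blood and was not tested, and Csf2, which encodes GM-CSF, had 1 count in all.

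The JAK kinases did not pass in either direction, 0 of 4, with 1 of 4 at an unadjusted p under 0.05, while 4 of 8 genes of the STAT group, Irf9 included, were lower in liver, against 14.2% of all genes tested, and 0 higher. DESeq2 and limma-voom gave the same counts called for the STAT group, and limma-voom did so for the JAK kinases. Jak2, the kinase of the receptors for G-CSF and GM-CSF, had 371, 334 and 289 CPM in liver and 204, 258 and 223 CPM in blood, with an adjusted p of 0.0565, or 0.0316 with libraries paired by number and 0.049 with DESeq2, which called 1 of 4 kinases as higher. Stat5b, which acts below Csf3r and the GM-CSF receptor, had 119, 125 and 147 CPM in liver and 287, 344 and 359 CPM in blood, a log2 fold change of -1.34 ± 0.19 (SE), or 2.53-fold lower (adjusted p = 0.00119). Stat6, the factor below Il4ra, had 424, 398 and 381 CPM in liver and 719, 613 and 611 CPM in blood (-0.69 ± 0.19, SE; adjusted p = 0.0206). For both Stat5b and Stat6 the liver libraries lay below all blood libraries. Stat3, the factor below Il6ra and Il10ra and the most abundant of the group, overlapped, with 556, 626 and 469 CPM in liver and 563, 660 and 554 CPM in blood (adjusted p = 0.717). Irf9 fell by 1.03 ± 0.34 (SE) on the log2 scale with overlapping groups (adjusted p = 0.0471), and its call was lost without liver 1, liver 3, blood 1 or blood 2 (0.0587 to 0.145). Irf9 also missed the threshold with DESeq2 size factors (0.0514) and upper-quartile factors (0.0593) in edgeR. The Stat6 call was lost without liver 2 or blood 1 (0.0512 to 0.0664). Without liver 3 and blood 1 together, 1 of the 8 genes was lower, Stat5b.

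Of 21 genes that inhibit these pathways, 2 were higher in liver and 6 lower, or 38.1% called, near the 31.6% of all genes tested. Socs2 and Cish met the count filter in the liver libraries only. Among the 19 inhibitors that met it in both groups, 1 was higher and 6 lower. Pias3, an inhibitor of Stat3, had 15.4, 14.2 and 12.7 CPM in liver and 42.6, 40.0 and 45.7 CPM in blood, 3.03-fold lower (adjusted p = 0.000855). Ptpn2, a phosphatase of JAKs and STATs, had 62.9, 74.5 and 47.9 CPM in liver and 25.7, 22.3 and 25.8 CPM in blood, 2.51-fold higher (adjusted p = 0.00238). Socs3, the feedback inhibitor that binds the G-CSF receptor and gp130, had 269, 285 and 271 CPM in liver and 520 CPM, 1008 CPM and 321 CPM in blood. It was 2.24-fold lower (adjusted p = 0.038), with the liver libraries close together and the blood libraries spread, and it did not pass when libraries were paired by number (0.0527) or without liver 1, liver 2, liver 3 or blood 2 (0.0875 to 0.113). Ptprc, which encodes CD45 and is the most abundant of the list, was 2.16-fold lower (adjusted p = 0.0149, and 0.0595 without liver 1).

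Of 15 targets of Stat3 and Stat5, 4 were higher and 2 lower, or 40.0% called, a share near the 31.6% of all genes tested. Cish and Socs2 met the count filter in the liver libraries only. Among the 13 targets that met it in both groups, 3 were higher and 2 lower. Pim1, a kinase induced by growth factor receptors, had 3931, 3044 and 2103 CPM in liver and 617, 910.2 and 350.4 CPM in blood, a log2 fold change of 2.27 ± 0.38 (SE), or 4.83-fold (adjusted p = 0.00259). Il1rn, the interleukin 1 receptor antagonist, was 4.21-fold higher (adjusted p = 0.00396), and Bcl6, a transcriptional repressor, was 2.50-fold lower (adjusted p = 0.00228). Socs3 was the other gene of the list that was lower. Mcl1, a survival factor and the most abundant of the list, had 1707, 2113 and 1832 CPM in liver and 2726, 3926 and 2542 CPM in blood, and did not pass (adjusted p = 0.0569, and 0.0155 paired by number).

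Of 12 targets of interleukins 4 and 13, 10 met the count filter, 6 of them in the liver libraries only, which fixes the direction they could take. Of the 4 that met it in both groups, 2 were higher in liver, Egr2 and Tgm2. Egr2, a transcription factor, had 66.1, 108 and 67.5 CPM in liver and 3.67, 3.77 and 0.873 CPM in blood, a log2 fold change of 4.87 ± 0.52 (SE), or 29.3-fold (adjusted p = 0.000647). Tgm2, a transglutaminase, had 4435, 4142 and 1842 CPM in liver and 147, 350 and 117 CPM in blood, 17.0-fold higher (adjusted p = 0.00128). Several genes of this list are best known from macrophages. Of 11 tested macrophage markers 6 were higher in liver, but 9 of the 11 met the count filter in the liver libraries only. Csf1r, the most abundant of those markers in liver, did not pass. The part of macrophage transcripts in the levels of Egr2 and Tgm2 was not tested.

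Of 16 tested targets of interferon gamma, 18.8% were higher and 25.0% lower, against 17.4% and 14.2% of all genes tested. Gbp4 and Cxcl10 met the count filter in the liver libraries only. Among the 14 targets that met it in both groups, 2 were higher and 4 lower. Cd274, which encodes the checkpoint ligand PD-L1, had 428, 459.9 and 406 CPM in liver and 76.2, 70.3 and 45.4 CPM in blood, 6.75-fold higher (adjusted p = 0.000143). Irf8 was higher (adjusted p = 0.0327, and 0.127 paired by number), while the guanosine triphosphatase genes Gbp7, at -1.63 (adjusted p = 0.0487), and Igtp, at -1.51 (adjusted p = 0.00438), were lower. The Irf8 and Gbp7 calls were lost without liver 1, liver 3 or blood 2 (0.0671 to 0.0917 for Irf8 and 0.107 to 0.156 for Gbp7). Of 17 tested targets of type I interferon, 2 were called higher, Mx1 and Mx2 (named with their values known), but both met the count filter in the liver libraries only. In edgeR 0 were lower. The number lower was 1 at an unadjusted p under 0.05, 2 with DESeq2 and 0 with limma-voom, and with libraries paired by number 3 genes were higher and 6 lower. Oasl2, an antiviral gene and the most abundant of the list, had 152, 255 and 66.4 CPM in liver and 380.4, 706 and 206 CPM in blood. Its groups overlapped (log2 fold change -1.45 ± 0.59, SE; adjusted p = 0.106), but each liver library lay below the blood library of the same number, and the adjusted p was 0.000508 with pairing. Counted once each, 48 of 109 tested genes of all these lists passed, or 44.0%, with 27.5% higher and 16.5% lower, against 31.6%, 17.4% and 14.2% of all genes tested. Of these 109, 17 met the count filter in the liver libraries only. Among the 91 that met it in both groups 38.5% passed, 17 as higher and 18 as lower.

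**Figure D4:**
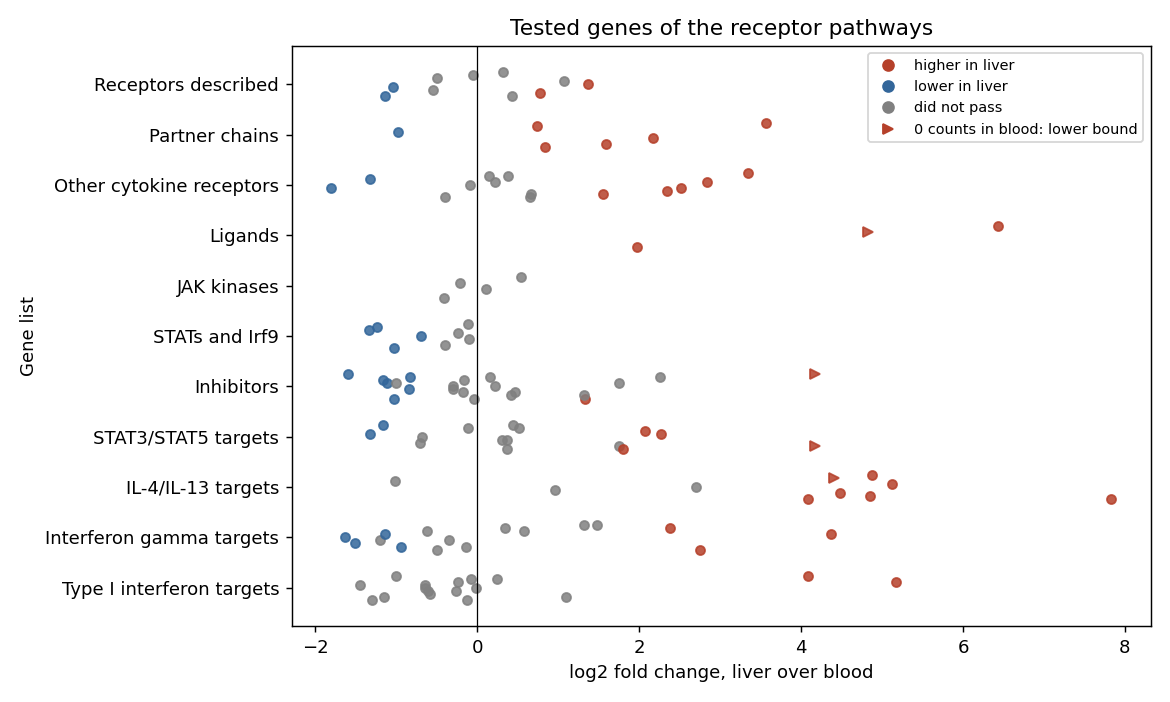
log2 fold change of liver over blood for each tested gene of the receptor pathways, by list; colour marks genes that passed the test, and triangles mark genes with 0 counts in blood, drawn at their lower bound. Among the STAT genes and Irf9 no point passed as higher, and all 4 called genes of that list lie to the left of 0.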

How the data were processed

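RNA of 6 libraries was read as paired ends after a stranded low-input total RNA kit, per the labels' protocols. Each deposited file gives expected counts of genes that the authors estimated. The submitters' processing notes list STAR, RSEM, FastQC 0.11.5, limma and the build GRCm38. Versions of the first pair and the strand setting were not given in the sources. The deposited TPM columns were not used. Of the rows, 98.9% matched GENCODE M21 by identifier, and 213 symbols had more than 1 row, of which the row with the largest summed count was kept.

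Expected counts were rounded, filtered with filterByExpr (minimum count 10, minimum total 15) and scaled by TMM. Liver was compared with blood by the robust quasi-likelihood F test of edgeR 4.0.16 under R 4.3.3, with Benjamini-Hochberg adjustment over 13458 genes and a threshold of 0.05. A gene is said to meet the filter in both groups where all 3 libraries of each reached its minimum. Chain ratios are of counts plus 0.5, tested by exact permutation over libraries and adjusted over 7 ratios. Named genes were all 10 receptors and, of each list, up to 4 called genes with the largest change at a mean of at least 10 CPM and the most abundant member. A few genes that this rule names are not reported here. The receptors and lists were chosen with earlier results of these data known. Motifs were searched on both strands of the 250 bases before RefSeq starts (GRCm38.p6).

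Deviations from the group means had correlations of 0.102, 0.247 and 0.109 across genes between libraries of equal sample number. No correlation between libraries of unequal number stands beside them, so they do not show that equal numbers belong together. A fit with the sample number as a replicate block was treated as a pairing and tried as an alternative only. The labels do not say what the numbers mark. DESeq2 1.42.0, limma-voom (limma 3.58.1), other scalings and filters and leaving out libraries were tried as alternatives.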

Additional observations from a re-analysis of the deposited data

How the results depend on the processing

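The calls of Il10ra and Il6ra held in every alternative tried, and those of Csf3r and Ifnar1 did not. The number of receptor genes called was 4, and ran from 2 to 4 when each library was left out in turn, with 1 to 3 higher and 1 to 2 lower. The median log2 fold change of the receptor genes then ran from -0.00687 to 0.28, the pathway genes called from 34 to 51 against 48, and the chain ratios with separate groups from 5 to 6. Without liver 3 and blood 1 together, the numbers were 2 called, 1 higher and 1 lower, with 4 libraries in the test. With the stricter filter, at least 1 CPM in 3 libraries and a mean of 10 CPM, 1 receptor gene was lower, since the adjusted p of Csf3r was 0.0696, and 26 pathway genes were called among fewer genes tested. With the replicate block, which pairs libraries by sample number, 5 receptor genes and 54 pathway genes were called, and 6 chain ratios differed in the same direction in all 3 pairs. The gain among the receptors was Csf2rb2, which total counts, no filter and DESeq2 also called, and the changes in Il7r, Csf1, Socs3, Jak2, Mcl1, Irf8 and the type I interferon targets are given with those genes. The log2 fold change of Csf2rb turned positive at 0.0372 with upper-quartile factors, 0.0224 with total counts, 0.144 with the stricter filter and 0.0282 without liver 3 and blood 1, and ran from -0.191 to 0.11 with each library left out. That of Stat3 turned to 0.0895 with the stricter filter, and the log2 difference of the Ifnar2 to Ifnar1 ratio ran from -0.0144, without blood 1, to 0.145. The cause of these turns was not tested. Summing Il6ra and Il4ra with their antisense genes, chosen after seeing the data, left 2 higher and 2 lower. At 3 libraries a group, a p above the threshold does not show that levels were alike.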
